A study of Mus musculus with 3 samples.

Results

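Stress signalling through the transcription factor ATF4 and the supply of charged tRNA were examined through 35 genes, chosen by name: 15 stress regulators and effectors and 20 genes that encode cytosolic aminoacyl-tRNA synthetases. They are 35 of the 31510 genes in the deposited tables, where 28 were found by gene symbol and 7 by Ensembl identifier. All 35 reached at least 1 RPKM (exon reads scaled to exon length and to library size) in a library, and 34 did so in all 3. The exception was Cebpb, at 0.78 RPKM in the reactivated library. The libraries came from mouse blastocysts in delayed implantation, an experimental pause in which the embryo stays alive in the uterus without attaching. The pregnant mothers were CD-1 mice of 2 months, with no mutation or transgene named in the labels. All were ovariectomized on day 4 of pregnancy and given progesterone, 2 mg per mouse, from day 5 to day 7. Blastocysts of the dormant state were flushed on day 8 with no estrogen given. Blastocysts of the reactivating state were collected 6 h after an injection of E2 (estradiol) on day 7, and those of the reactivated state 12 h after it. Every state is 1 library from a pool of more than 3000 blastocysts, so the dormant, reactivating and reactivated values have no replicate error. Collection time changed together with the state, and the effects of E2 and of time cannot be told apart. Since RNA of whole blastocysts was measured, fewer cells of a type and less RNA per cell cannot be told apart either.

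The integrated stress response begins with kinases that phosphorylate the translation factor eIF2, which lowers protein synthesis in general while the Atf4 mRNA is translated more. ATF4 protein then switches on genes for the synthesis and uptake of amino acids, many cytosolic tRNA synthetases and, under stronger stress, Ddit3. A synthetase joins an amino acid to its tRNA, and the charged tRNA feeds translation. Dormant blastocysts are known for little protein synthesis and growth. Much of this pathway acts through phosphorylation and translation, which mRNA levels do not show.

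ATF4 binds DNA as a dimer with a C/EBP protein at elements of the form TGATGNAA. That pattern was searched on both strands in RefSeq promoter windows (build GRCm38.p6, 250 bases before to 50 after each annotated start), which were found for 28 of the 35 genes. It was present for 9 of these 28 (32.1%), namely for 4 of 15 stress genes and for 5 of 13 synthetases, against 4.51% of all 27025 genes with a window. Counting only the 250 bases before the start, it was present for 6 of the 28 (21.4%), against 3.91% of all genes. Of the sites before the start, 5 are shown because they are the sequence feature that several stress genes and synthetases share. Capitals mark the matched letters, and each line reads 5′ to 3′ along the strand of its gene.
Asns (chr6:7693214-7693243, minus strand): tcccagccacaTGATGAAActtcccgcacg
Nupr1 (chr7:126625562-126625591, minus strand): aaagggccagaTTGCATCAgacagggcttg
Chac1 (chr2:119351038-119351067, plus strand): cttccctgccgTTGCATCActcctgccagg
Gars (chr6:55037960-55037989, plus strand): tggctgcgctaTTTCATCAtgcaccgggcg
Tars (chr15:11399659-11399684, minus strand): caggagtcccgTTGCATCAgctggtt
In Asns the letters stand in the direction of the gene, and in the other 4 they match on the opposite strand. The match began 23 bases before the start in Asns, 110 in Nupr1, 193 in Chac1, 30 in Gars and 15 in Tars. GENCODE M21 (GRCm38) draws longer genes for Asns and Nupr1, which take in these sites. In Aars, which is not printed, a match began 112 bases before the start and another 10 bases after it. In Trib3, Iars and Yars the pattern was found only after the start. A match of letters is a description of the window and shows no binding.

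The dormant library held 9298675 exon reads, the reactivating 10364607 and the reactivated 12941447. A gene with 1 kb of exon and 3 reads would read 0.212, 0.191 and 0.158 RPKM in them. Markers of blastocyst lineages were present. The 7 trophectoderm markers summed to 1210, 1191 and 937 RPKM in the dormant, reactivating and reactivated libraries, the 6 epiblast markers to 160, 211 and 192 RPKM, and the 6 primitive endoderm markers to 201, 216 and 102 RPKM. Among markers of other cells, the 8 of uterine epithelium summed to 108, 102 and 59.8 RPKM with 5 of them at 1 RPKM or more in each library. The 7 of uterine stroma summed to 5.32, 4.04 and 5.59 RPKM (1 at 1 RPKM or more), with Hand2 at 0 in the reactivated library. The 6 of immune cells summed to 18.8, 15.1 and 5.52 RPKM, with 3, 2 and 1 of them at 1 RPKM or more. The highest value among the 6 was 13.7, 11.5 and 4.11 RPKM in the dormant, reactivating and reactivated libraries. Their pan-leukocyte marker Ptprc stayed at or under 0.27 RPKM, and Tyrobp was at 0 in the reactivated library. The 4 of red blood cells summed to at most 0.66 RPKM with Hba-a1 at 0. Trophectoderm, primitive endoderm, uterine epithelium and immune marker sums were lowest in the reactivated library, where several stress genes were lower too. Most of the primitive endoderm difference was that of Dab2, and the other 5 markers summed to 62.9, 59.5 and 49.0 RPKM. Most of the trophectoderm sums was Krt18, at 807, 834 and 624 RPKM, a ratio of 0.774 (0.757 to 0.791) for reactivated over dormant. Of the trophectoderm markers Cdx2 fell by 1.66 and Gata3 by 1.15 at 12 h against dormant on the log2 scale used for all genes below, while Elf5 rose by 1.40. All 3 immune markers tested there fell by at least 1 (median -1.37), and so did 2 of the 5 tested of uterine epithelium. Of all genes tested, 7.66% fell that far. The part of these cell types in the differences of these genes was not tested.

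A gene was counted as higher or lower when the log2 difference of RPKM + 1 was at least 1 in size, which is 2 times, and the higher of the 2 libraries had at least 1 RPKM. With 1 library per state this is a rule of size and not a test. The intervals in brackets are exact 95% intervals. They cover counting error only, since each state has 1 library. PCR copies were not marked by molecular identifiers, so the intervals may be too narrow even for counting error.

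The reactivating library was first set against the dormant library. None of the 15 stress genes and none of the 20 synthetases passed the size rule at 6 h, where 5.75% of the 12126 genes tested did. By direction, 2.68% were higher and 3.07% lower. Among genes with at least 1 kb of exon, which all of the 35 but Ddit3 and Nupr1 have, 0.465% of 9453 passed. In lists this short a count of 0 is near these shares and says little. Smaller differences past counting error were present, with a ratio of 1.86 (1.36 to 2.57) for Psph and 0.712 (0.639 to 0.794) for Farsb. The median log2 difference was -0.01 for the stress genes and 0.09 for the synthetases, against 0.06 for all genes tested.

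In the reactivated library the stress genes moved apart: 2 enzymes of serine synthesis rose, and 3 regulators of the stress response fell. Of the 15 genes 2 were higher and 3 lower than in the dormant library (33.3%), and 10 were neither, while 12.9% of 12037 genes passed the rule (5.27% higher, 7.66% lower). For genes with at least 1 kb of exon it was 8.68% of 9435. That share does not cover Ddit3 and Nupr1, which passed the rule and have 863 and 642 bases of exon. The median log2 difference of the 15 was -0.56, against -0.07 for all genes. Set against the reactivating library instead, 1 stress gene was higher and 3 were lower, where 11.4% of 12065 genes passed (3.82% higher, 7.63% lower), and 8.65% of those with at least 1 kb of exon. Both comparisons use the same reactivated library, so they are not independent of each other. Of all genes called in reactivated against reactivating, 33.4% were higher, and that share was 50.6%, 49.6% and 44.8% under the 3 other scalings tried.

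**Figure D1:**
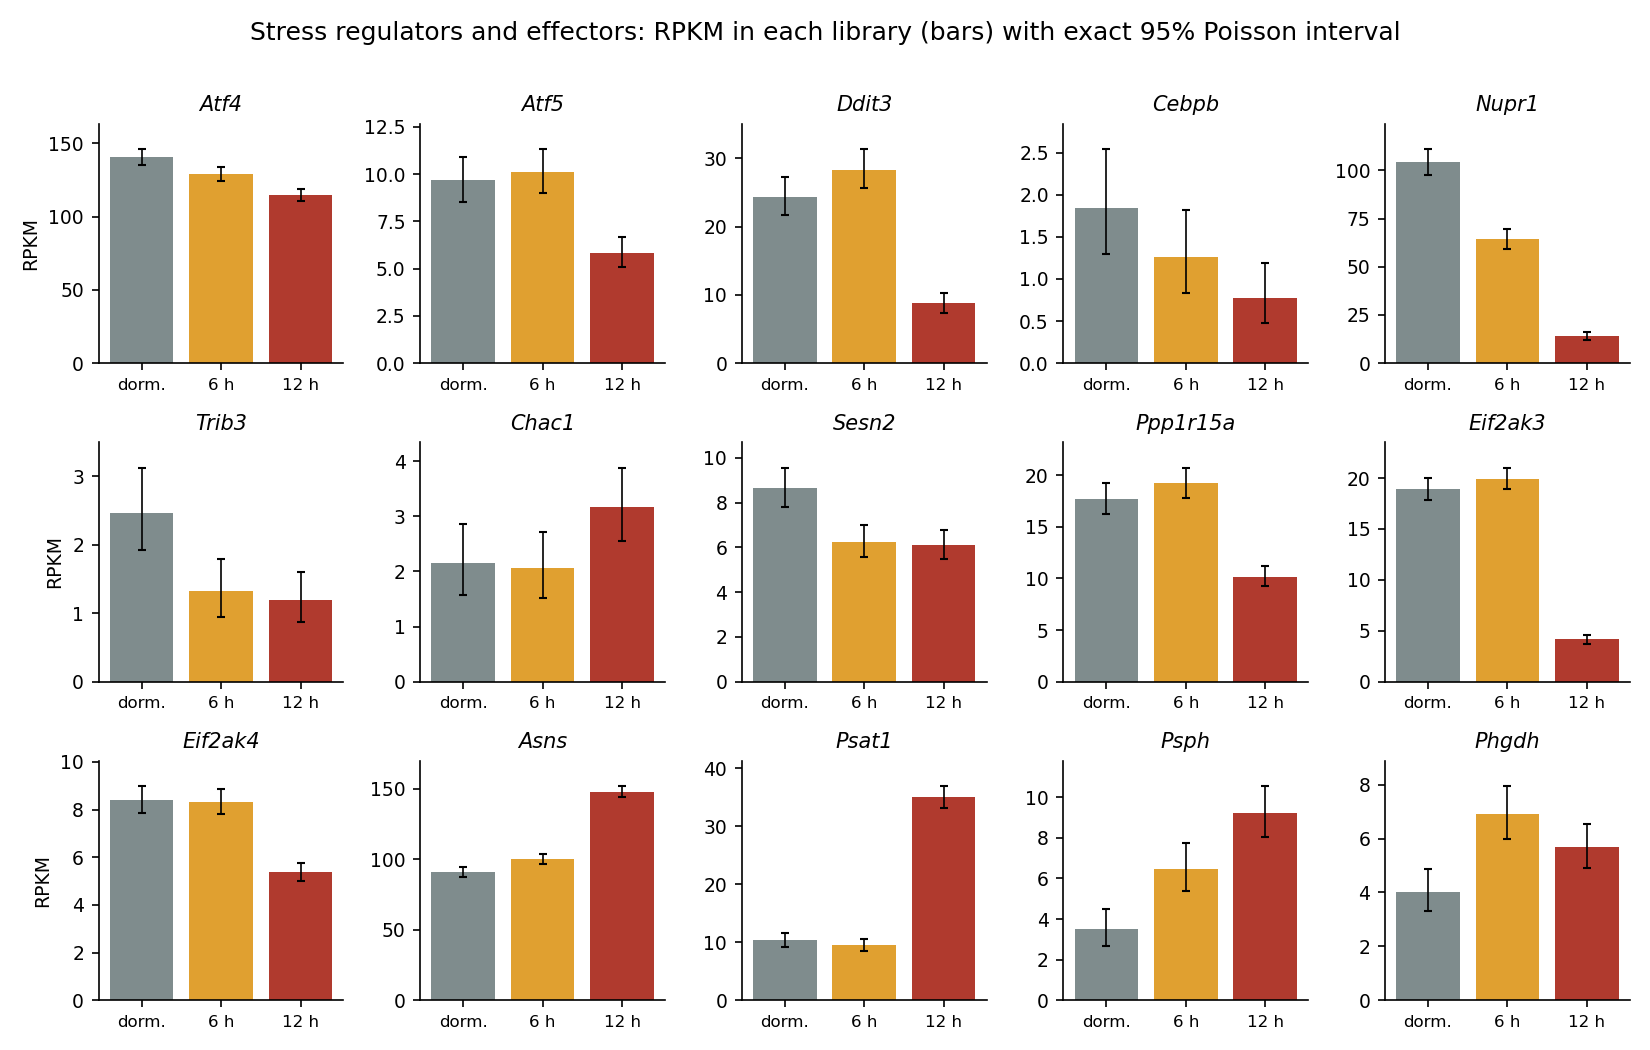
RPKM (vertical axes, each from 0) of the 15 stress regulators and effectors in the dormant, reactivating (6 h) and reactivated (12 h) libraries. Bars are the value of the 1 library per state, and error bars are exact 95% Poisson intervals. Nupr1, Ddit3 and Eif2ak3 are lowest at 12 h, where Psat1, Psph and Asns are highest.

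Among the transcription factors, Atf4 itself (chr15:80255184-80257541) was the most abundant. It was at 141 RPKM (136 to 146) in the dormant, 129 (124 to 134) in the reactivating and 115 (111 to 119) in the reactivated library, and 97.2%, 97.0% and 96.6% of the genes with at least 1 RPKM lay below it. Its mRNA was lower at 12 h than in dormant blastocysts by a ratio of 0.817 (0.776 to 0.860), which is past counting error and far from the size rule. Reads across its splice junctions numbered 188, 147 and 129 in the dormant, reactivating and reactivated libraries, a ratio of 0.510 (0.405 to 0.642) for reactivated over dormant.

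Ddit3 (chr10:127290774-127296288), which encodes the pro-apoptotic factor CHOP, was at 24.4 RPKM (21.7 to 27.3) in the dormant, 28.4 (25.6 to 31.4) in the reactivating and 8.79 (7.41 to 10.4) in the reactivated library. The dormant and reactivating intervals overlap, and the reactivated value lies well below both. It fell by 1.37 on the log2 scale against dormant and by 1.58 against reactivating. Junction reads of Ddit3 numbered 75, 54 and 14 in the 3 states. Ddit3 overlaps Mars on the other strand. Reads opposite to Ddit3 amounted to 12.1%, 11.1% and 25% of the sum of its exon and opposite reads, in the same order. The files count the strands apart, so these reads are not in the RPKM.

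Nupr1 (chr7:126623249-126630861), a small chromatin-associated protein induced by many stresses, had the largest difference of the 35 genes. It was at 104 RPKM (97.6 to 111) in the dormant, 64.3 (59.5 to 69.5) in the reactivating and 13.95 (11.9 to 16.2) in the reactivated library. No intervals overlapped, with the dormant value highest and the reactivated value lowest. At 6 h the log2 difference from dormant was -0.69, short of the rule, and at 12 h Nupr1 fell by 2.81, to 0.134 of its dormant level (0.113 to 0.158).

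Atf5, a relative of Atf4 that is also controlled through translation, was at 9.67, 10.1 and 5.83 RPKM in the dormant, reactivating and reactivated libraries. Its log2 difference at 12 h was -0.64, and reads on the opposite strand, where Il4i1 and Nup62 overlap it, were 12.3%, 15.2% and 18.01%. Cebpb, a C/EBP factor that can pair with ATF4, was near the lower limit at 1.84 (1.30 to 2.54), 1.26 (0.835 to 1.82) and 0.78 RPKM (0.482 to 1.19). All 5 transcription factors thus lay lower in reactivated than in dormant blastocysts, where 54.7% of all genes tested lay lower. Of the 5, Ddit3 and Nupr1 passed the rule, where 7.66% of all genes were called lower.

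Both eIF2 kinases of the list were lower at 12 h past counting error, and 1 of them passed the size rule. Eif2ak3 (chr6:70844515-70905245) encodes PERK, the kinase that responds to unfolded protein in the endoplasmic reticulum. It was at 18.9 RPKM (17.9 to 20.01) in the dormant, 19.95 (18.9 to 21.02) in the reactivating and 4.15 (3.73 to 4.61) in the reactivated library. Dormant and reactivating values could not be told apart by counting error, and the reactivated value fell by 1.95 on the log2 scale against dormant, a ratio of 0.219 (0.194 to 0.247). Eif2ak4 encodes GCN2, the kinase that responds to uncharged tRNA, and was at 8.40, 8.32 and 5.36 RPKM in the dormant, reactivating and reactivated libraries, a log2 difference of -0.56 at 12 h and a ratio of 0.638 (0.578 to 0.705). Ppp1r15a encodes GADD34, which brings a phosphatase to eIF2 and so ends the response. It was at 17.7 (16.3 to 19.2), 19.2 (17.8 to 20.7) and 10.2 RPKM (9.26 to 11.2), a log2 difference of -0.74 at 12 h.

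None of the 3 brakes and effectors downstream of ATF4 passed the rule in any comparison. Of all genes, 5.75% (reactivating against dormant), 12.9% (reactivated against dormant) and 11.4% (reactivated against reactivating) passed, so a count of 0 among 3 says little. Trib3 and Chac1 were expressed at low levels. Trib3, a pseudokinase that restrains ATF4 and CHOP, was at 2.47 (1.92 to 3.12), 1.32 (0.948 to 1.79) and 1.20 RPKM (0.874 to 1.60) in the dormant, reactivating and reactivated libraries. Chac1, an enzyme that degrades glutathione, was at 2.15 (1.57 to 2.86), 2.06 (1.52 to 2.72) and 3.16 RPKM (2.54 to 3.88). The 2 genes went opposite ways, and the dormant and reactivated intervals overlap for Chac1 and not for Trib3. The ratio of reactivated over dormant was 1.47 (1.02 to 2.15) for Chac1 and 0.485 (0.326 to 0.716) for Trib3, both clear of 1. These ratios have no pseudocount, and on RPKM + 1 the log2 differences were 0.40 for Chac1 and -0.66 for Trib3. Sesn2, a leucine sensor that holds back mTORC1, was at 8.64 (7.80 to 9.56), 6.25 (5.57 to 6.99) and 6.09 RPKM (5.48 to 6.75), with its dormant value above both others. It was in the middle of the range, with 57.2%, 45.0% and 46.1% of the genes at 1 RPKM or more below it.

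The 4 amino acid enzymes were all above their dormant level in the reactivated library. Psat1 (chr19:15904678-15947337) and Psph (chr5:129765558-129787449) catalyse the last steps of serine synthesis, after Phgdh. Psat1 was at 10.3 RPKM (9.19 to 11.5) in the dormant, 9.47 (8.44 to 10.6) in the reactivating and 35.04 (33.2 to 36.9) in the reactivated library. Its first 2 values overlap, and at 12 h it rose by 1.67 on the log2 scale against dormant and by 1.78 against reactivating. Junction reads of Psat1 numbered 52, 124 and 343, a ratio of 4.91 (3.66 to 6.70) for reactivated over dormant, and they were already at a ratio of 2.15 (1.54 to 3.03) for reactivating over dormant, where all exon reads were at 0.918 (0.781 to 1.08). Psph was at 3.49 (2.67 to 4.48), 6.49 (5.40 to 7.72) and 9.23 RPKM (8.05 to 10.5), with no overlap between states, and rose by 1.19 at 12 h against dormant. Its junction reads were few, at 12, 13 and 26, and their ratio of 1.61 (0.785 to 3.51) for reactivated over dormant, like its intron ratio of 1.48 (0.843 to 2.68), was not clear of 1. Psph overlaps the abundant Cct6a on the opposite strand, whose exon reads numbered 1817, 2206 and 5149 in the dormant, reactivating and reactivated libraries. Reads opposite to Psph were 7.58%, 3.82% and 8.44% of the sum of its exon and opposite reads, and their part in its difference was not tested.

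Phgdh, which opens the serine pathway, was at 4.03 (3.30 to 4.89), 6.91 (5.98 to 7.95) and 5.68 RPKM (4.92 to 6.54) in the dormant, reactivating and reactivated states. Its log2 differences from dormant were 0.65 at 6 h and 0.41 at 12 h. The reactivating and reactivated values could not be told apart by counting error, with a ratio of 0.822 (0.672 to 1.01) for reactivated over reactivating. Asns (chr6:7675169-7693254), the asparagine synthetase whose promoter site is printed above, was at 91.0 (87.6 to 94.5), 100.3 (96.9 to 104) and 148 RPKM (144 to 152). Every interval lies apart, and the log2 difference of 0.69 at 12 h stayed under the rule. The Psat1 row of the tables also carries the symbol of a predicted copy, and M21 lists a pseudogene Phgdh-ps1, so reads of near-identical copies may be split or joined and the levels of Psat1 and Phgdh are uncertain to that extent.

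The cytosolic synthetases were abundant in every state, and most lay somewhat higher in reactivated than in dormant blastocysts, with 1 past the size rule. They summed to 710 RPKM in the dormant, 754 in the reactivating and 840 in the reactivated library, with medians of 37.4, 38.3 and 44.8 RPKM. Vars was the lowest in each library and Gars the highest, and the ratio of highest to lowest was 7.06, 8.71 and 15.9. Of the 20 genes 1 was higher and none was lower at 12 h against dormant (5%), where 12.9% of all genes passed the rule. Against the reactivating library none passed. The median log2 difference from dormant at 12 h was 0.35, with 14 genes above 0 and 6 below (5 under upper-quartile and median-ratio scaling, where Qars turned), against -0.07 for all genes, whose middle 50% lay between -0.48 and 0.34.

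**Figure D2:**
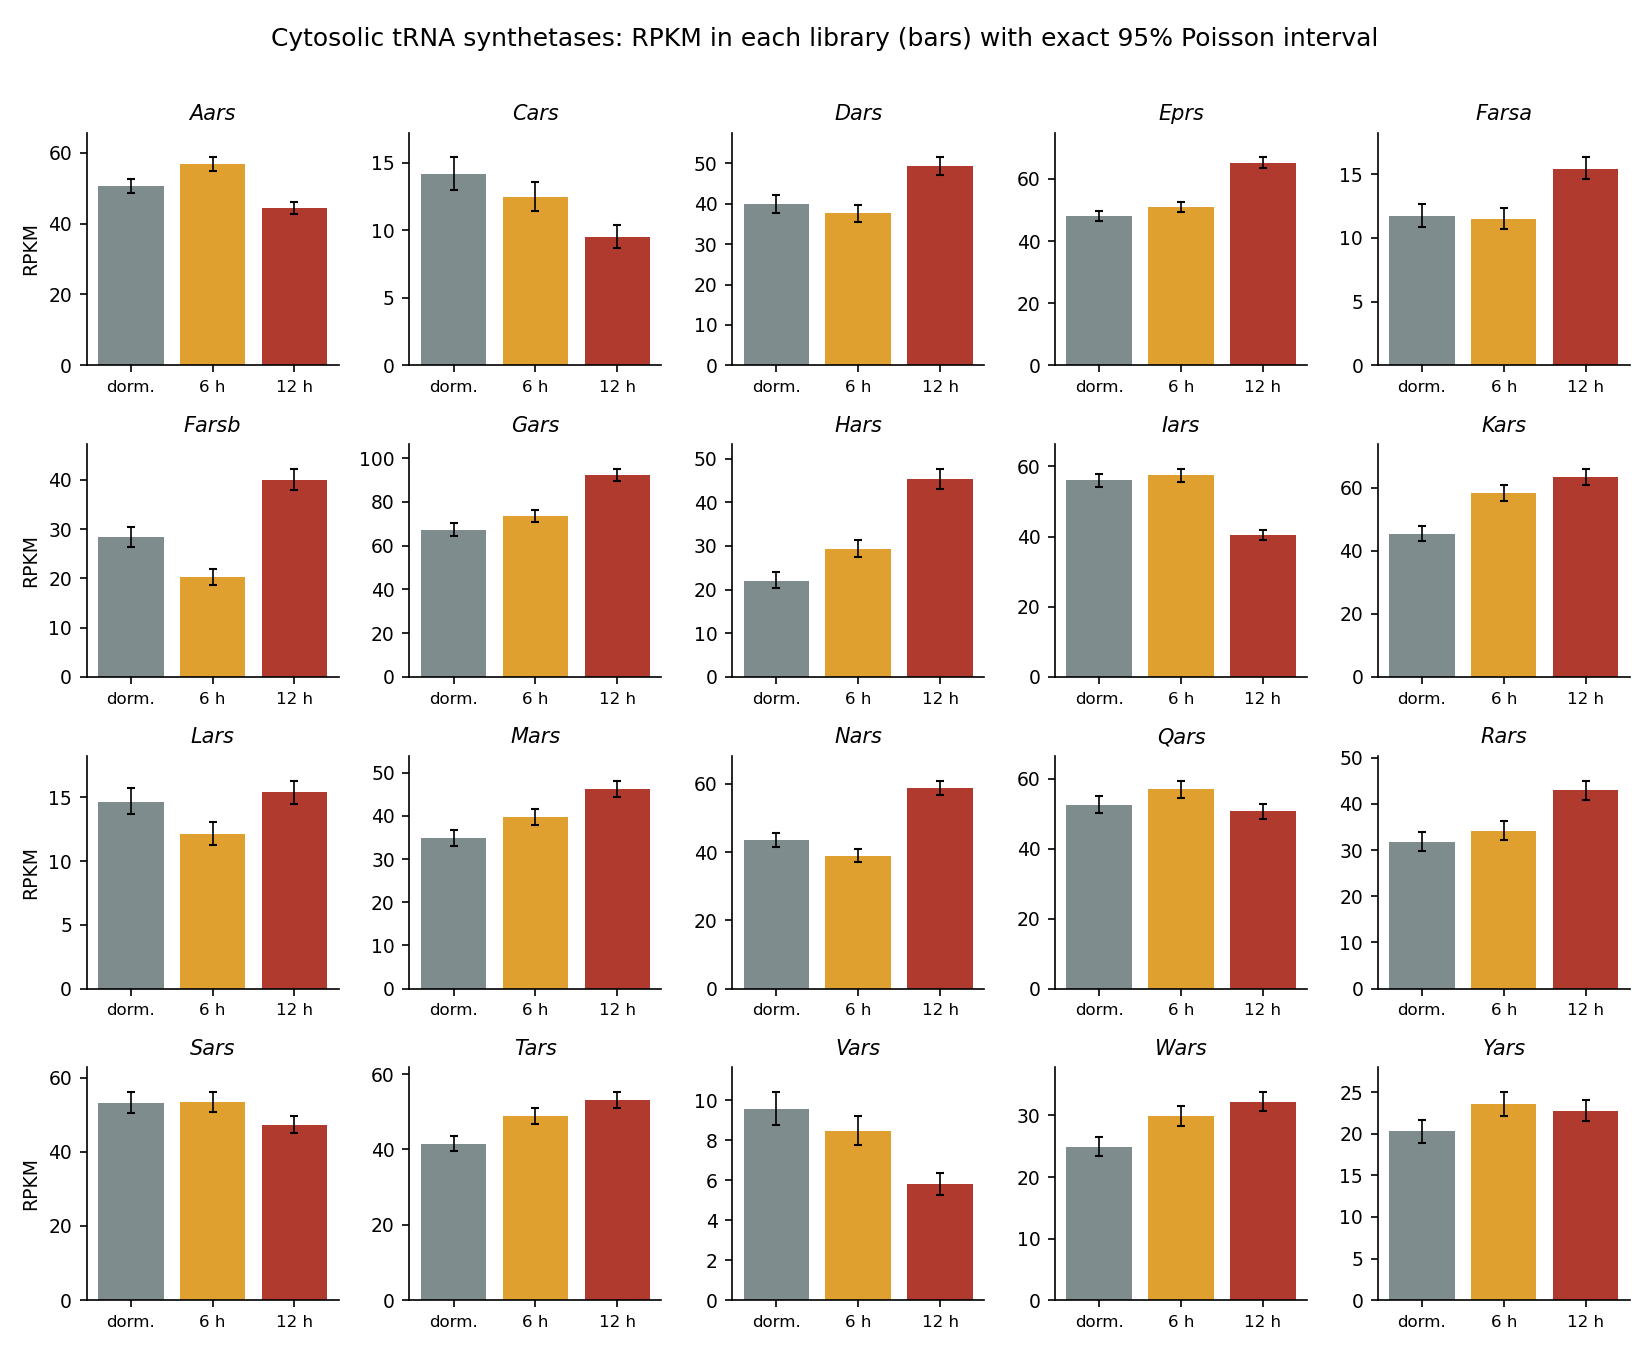
RPKM (vertical axes, each from 0) of the 20 cytosolic tRNA synthetases in the dormant, reactivating (6 h) and reactivated (12 h) libraries. Bars are the value of the 1 library per state, and error bars are exact 95% Poisson intervals. Most bars are tallest at 12 h, with Vars, Cars, Iars, Aars, Sars and Qars as the 6 whose reactivated value lies below the dormant one (without Qars under 2 other scalings).

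Hars (chr18:36766528-36783205), the histidine enzyme, was the 1 synthetase past the rule. It was at 22.1 RPKM (20.3 to 24.0) in the dormant, 29.4 (27.4 to 31.4) in the reactivating and 45.3 (43.0 to 47.6) in the reactivated library. The 3 intervals lie apart, lowest in dormant and highest in reactivated blastocysts. Hars rose by 1.005 at 12 h against dormant, a ratio of 2.05 (1.86 to 2.27). That is just inside the rule, and with CPM in place of RPKM the difference was 0.98 and outside it. Next in order, and outside the rule, were Farsb at 0.49 and Kars at 0.47. Hars overlaps Hars2, its mitochondrial counterpart, on the opposite strand.

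Farsa and Farsb encode the α and β subunits of the phenylalanine enzyme, and their levels differed in pattern. Farsb (chr1:78417975-78488897) was at 28.3 (26.4 to 30.4), 20.2 (18.6 to 21.9) and 40.1 RPKM (38.0 to 42.2) in the dormant, reactivating and reactivated libraries, lowest at 6 h. Farsa was at 11.7 (10.9 to 12.6), 11.5 (10.7 to 12.3) and 15.4 RPKM (14.6 to 16.3). In reactivated against reactivating Farsb had a log2 difference of 0.96, which passed the rule under the 3 other scalings, at 1.06 to 1.11.

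The 8 enzymes that follow sit together in the multisynthetase complex, those for aspartate (Dars), glutamate and proline (Eprs), isoleucine (Iars), lysine (Kars), leucine (Lars), methionine (Mars), glutamine (Qars) and arginine (Rars). Their median log2 difference at 12 h against dormant was 0.35, and it was 0.35 for the other 12 too. Kars had 45.4, 58.3 and 63.4 RPKM in the dormant, reactivating and reactivated libraries, and Eprs had 48.0, 50.9 and 65.2 RPKM. Dars was at 40.0, 37.6 and 49.3 RPKM, Mars at 34.8, 39.7 and 46.3, Rars at 31.8, 34.2 and 43.0, and Lars at 14.7, 12.1 and 15.4. The complex was not uniform: Qars stayed within 50.6 to 57.0 RPKM, and Iars was at 56.1, 57.4 and 40.4 RPKM, a ratio of 0.721 (0.688 to 0.757) for reactivated over dormant. Rows of Kars and Eprs also carry symbols of predicted copies, and M21 lists a pseudogene Kars-ps1.

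Outside the complex, Gars (glycine) was at 67.4, 73.6 and 92.2 RPKM in the dormant, reactivating and reactivated libraries, Nars (asparagine) at 43.5, 39.0 and 58.7, and Tars (threonine) at 41.6, 48.8 and 53.1. Wars (tryptophan), whose row also carries a predicted copy, was at 24.95, 29.9 and 32.2 RPKM, and Yars (tyrosine) at 20.3, 23.5 and 22.8. These 5 lay above their dormant level at 12 h, by log2 differences of 0.16 (Yars) to 0.45 (Gars). Aars (alanine) was at 50.5, 56.7 and 44.4 RPKM, Sars (serine) at 53.1, 53.3 and 47.3, Cars (cysteine) at 14.2, 12.5 and 9.48, and Vars (valine) at 9.55, 8.45 and 5.81. These 4 lay below their dormant level at 12 h, by log2 differences of -0.17 (Sars) to -0.63 (Vars), and none of the 9 passed the rule. Up to 9.46% of Cars reads were on the opposite strand, the most among the synthetases.

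**Figure D3:**
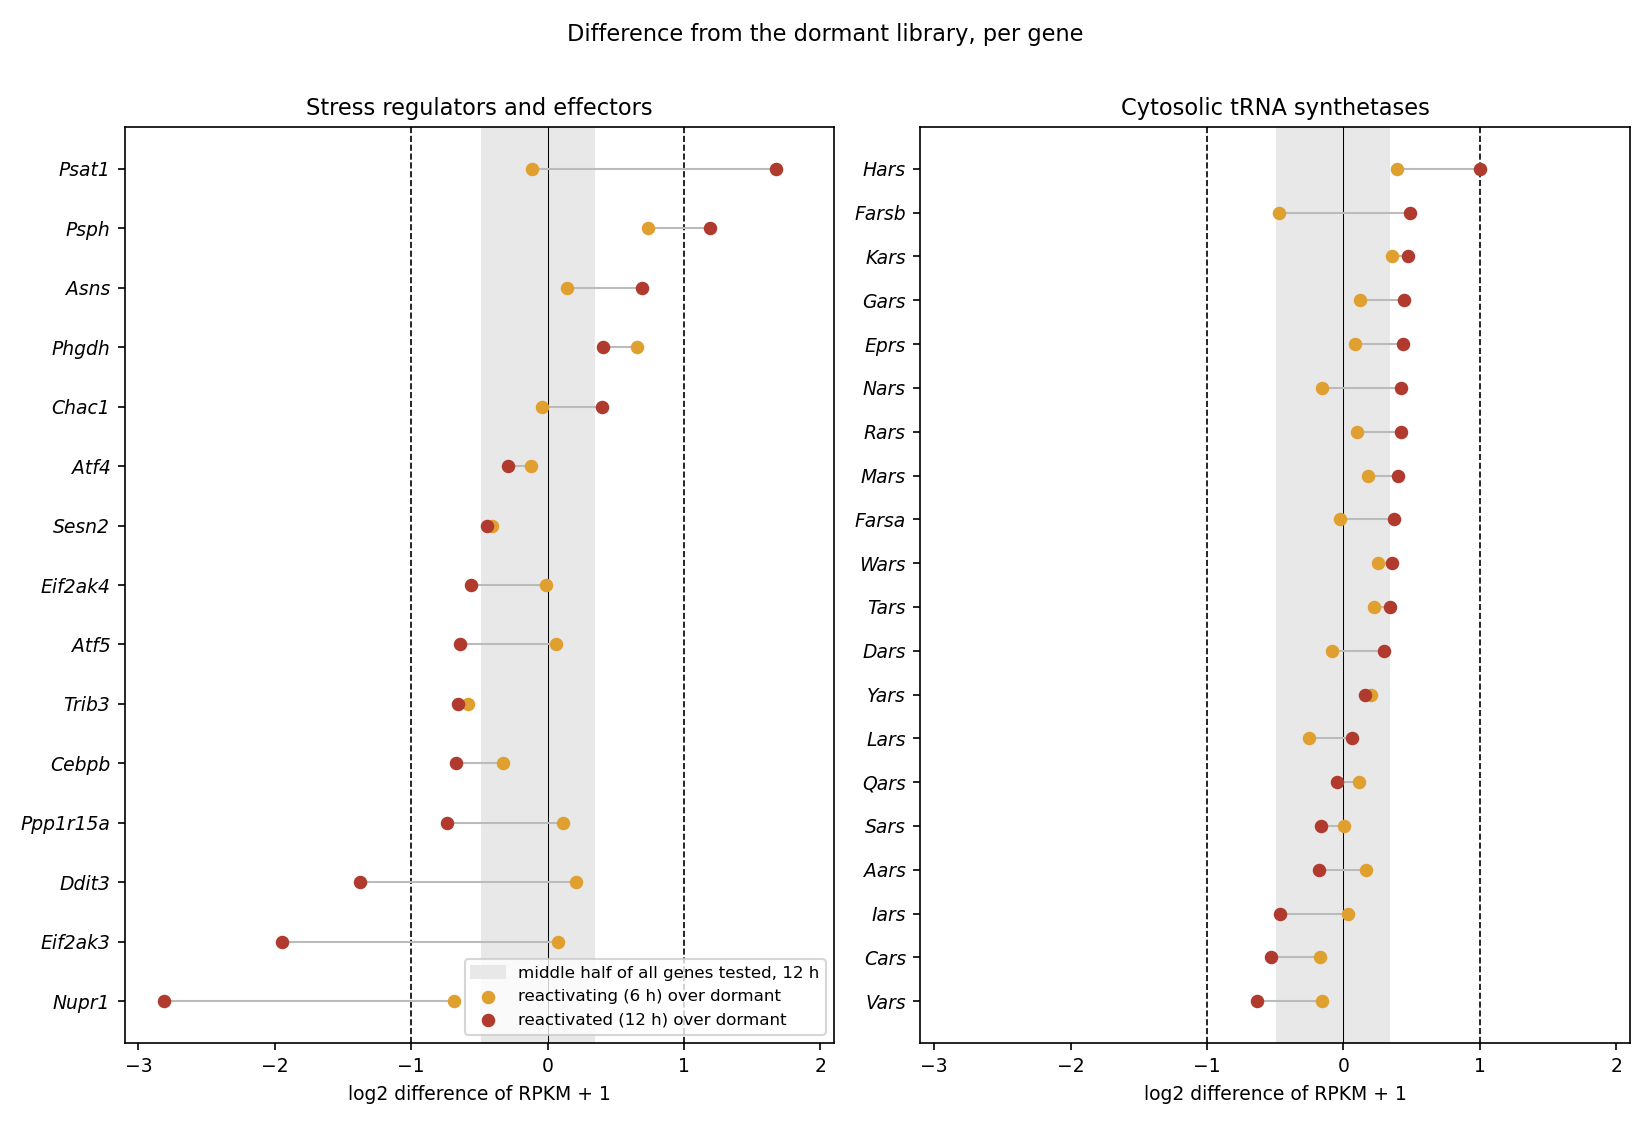
Log2 difference of RPKM + 1 from the dormant library (horizontal axis) for each stress gene (left) and synthetase (right), with yellow points for reactivating and red points for reactivated. Dashed lines mark the size rule of 1, and the grey band holds the middle 50% of all genes tested at 12 h. No yellow point passes a dashed line, and the red points run from -2.81 (Nupr1) to 1.67 (Psat1) on the left and from -0.63 (Vars) to 1.005 (Hars) on the right.

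Genes with and without the promoter element were found in both directions. Of the 4 stress genes with it, Nupr1 passed the rule at 12 h against dormant, and Asns, Chac1 and Trib3 did not. Of the 11 with no match in the window, 2 were higher and 2 lower. Of all genes tested in that comparison 5.27% were higher and 7.66% lower, and lists of 4 and 11 genes say little beside these shares. Sites outside the window were not searched. The 5 synthetases with it had log2 differences of -0.46 to 0.45, median 0.16, and the 8 with a window and no match had -0.17 to 0.49, median 0.39.

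Intron reads, which come mostly from RNA not yet spliced, were compared relative to the exon and intron reads of all genes. At least 20 of them in the 2 libraries together were found for 33 of the 35 genes in reactivated against dormant. Intron reads were 2 times higher or more for Psat1 and Phgdh, where 12.0% of 13243 genes were, and 2 times lower or more for Ddit3, Nupr1, Ppp1r15a and Iars, where 6.49% were. For the 3 genes among these that passed the exon rule, intron and exon reads went the same way. Intron reads of Psat1 had a ratio of 2.37 (1.84 to 3.10) for reactivated over dormant, those of Ddit3 0.424 (0.338 to 0.530) and those of Nupr1 0.228 (0.169 to 0.305). Eif2ak3 intron reads had a ratio of 0.643 (0.546 to 0.757), a smaller difference than its exon ratio of 0.219 (0.194 to 0.247). M21 places the snoRNA gene Gm23346 inside Eif2ak3, on the same strand, with 97, 96 and 42 exon reads of its own. In reactivating against dormant, intron reads of 32 genes could be compared. They were 2 times lower for Iars alone, where 2.38% of all genes were, and 2 times higher for none, where 9.35% were. In reactivated against reactivating they were 2 times higher for Psat1 and Trib3, where 5.66% were, and 2 times lower for Nupr1 and Ppp1r15a, where 8.29% were. Trib3 rested on 5 intron reads in the reactivating and 21 in the reactivated library, a ratio of 3.44 (1.26 to 11.7). Its exon ratio was 0.907 (0.581 to 1.42). Ppp1r15a rested on 53 and 9 intron reads.

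Exon and intron reads of Asns went opposite ways. Its exon reads numbered 2703, 3310 and 5907 in the dormant, reactivating and reactivated libraries, a ratio of 1.63 (1.55 to 1.70) for reactivated over dormant. Its intron reads numbered 879, 637 and 671, a ratio of 0.580 (0.524 to 0.642). For the serine enzyme Phgdh the intron ratio of 2.02 (1.65 to 2.50) was above the exon ratio of 1.41 (1.11 to 1.80), and introns held 55.2%, 41.8% and 63.4% of its exon and intron reads.

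Among the synthetases the exon ratio of reactivated over dormant had an interval above 1 for 13 of 20 and below 1 for 5, against 31.1% and 39.8% of 9323 genes with at least 1 RPKM and 20 intron reads. Intron reads lay the other way, with an interval above 1 for 2 of the 20 and below 1 for 13, against 13.5% and 35.1%. Exon reads were above and intron reads below dormant, each past counting error, for 7 of the 20 (Dars, Eprs, Farsb, Mars, Nars, Wars and Yars), against 5.35% of all those genes. Intervals narrow with the count, and the synthetases had 440 (Vars) to 6006 (Eprs) exon reads in the reactivated library. The median intron log2 difference of the 20 was -0.22, against -0.01 for all genes, and their median share of intron reads was 18.7%, 16.3% and 14.5% in the dormant, reactivating and reactivated libraries. The share was lower in the reactivating and reactivated libraries for all genes too. Its medians were 21.1%, 20.2% and 19.9% over genes with at least 1 RPKM. Of the summed reads of all genes it was 27.7%, 25.1% and 23.5%.

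**Figure D4:**
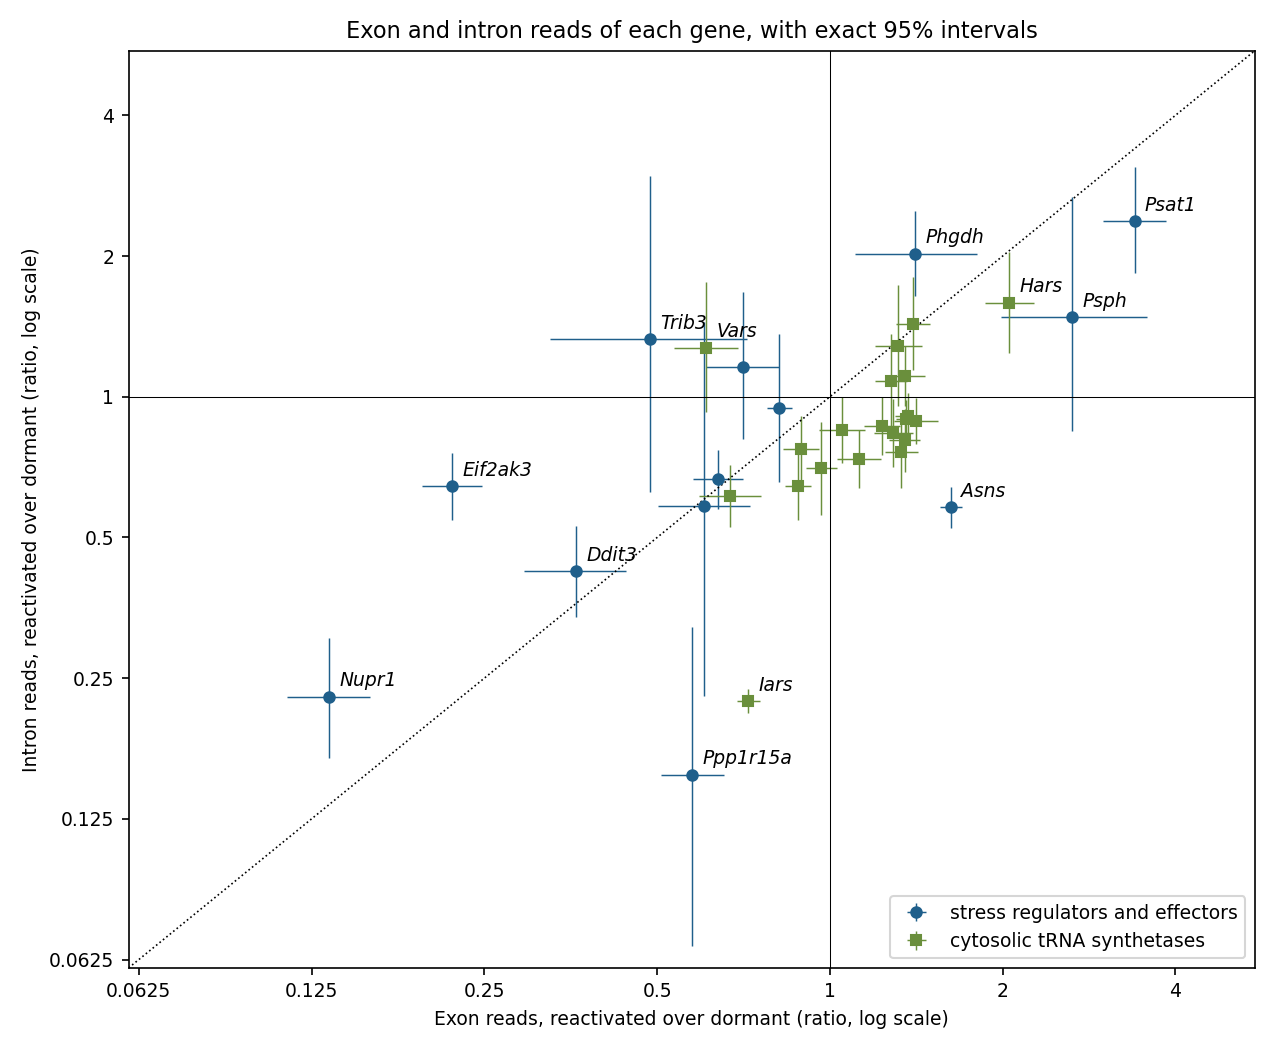
Ratio of reactivated over dormant for intron reads (vertical, log scale) against exon reads (horizontal, log scale), with circles for stress genes and squares for synthetases, and exact 95% intervals as bars. The dotted line marks equal ratios. For 7 synthetases the exon ratio lies above 1 and the intron ratio below 1 with both intervals clear of 1, Asns lies farthest on that side, and Iars and Ppp1r15a lie lowest in intron reads.

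Iars stood apart in its introns. It had 5058 intron reads in the dormant, 1884 in the reactivating and 1487 in the reactivated library, beside 3462, 3942 and 3357 exon reads. Introns thus held 59.4% of its reads in dormant blastocysts, and 32.3% and 30.7% at 6 h and 12 h. The intron ratio over dormant was 0.346 (0.328 to 0.365) for reactivating and 0.223 (0.211 to 0.237) for reactivated blastocysts, while the exon ratio at 6 h was 1.02 (0.979 to 1.07). M21 places 2 snoRNA genes inside Iars on the same strand, Gm25394 and Gm23482, the second with 0, 0 and 5 reads in the tables, and their part in the intron reads was not tested.

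None of the 17 mitochondrial synthetases passed the rule in any comparison, where 5.75% (reactivating against dormant), 12.9% (reactivated against dormant) and 11.4% (reactivated against reactivating) of all genes did. In so short a list a count of 0 is near those shares and says little. Their median log2 difference at 12 h against dormant was 0.02, against -0.07 for all genes. By exon reads, the 3 most abundant were Lars2 at 76.6, 59.3 and 61.9 RPKM in the dormant, reactivating and reactivated libraries, Iars2 at 20.7, 22.1 and 17.3, and Rars2 at 12.9, 12.4 and 16.7. Junction reads of Lars2 amounted to only 1.07%, 1.91% and 1.25% of its exon reads. For Iars2 it was 27.8%, 30.3% and 27.4%, and for Rars2 38.4%, 48.3% and 41.5%. How much of the Lars2 value is its mRNA was not tested, and its rank is uncertain to that extent. Of the 3 scaffold proteins of the multisynthetase complex none passed either. Eef1e1 was at 40.9, 44.5 and 72.4 RPKM in the 3 states, Aimp1 at 29.3, 45.0 and 52.9, and Aimp2 at 24.0, 23.9 and 24.8. The log2 difference at 12 h against dormant was 0.81 for Eef1e1, 0.83 for Aimp1 and 0.04 for Aimp2. Junction reads of Aimp1 numbered 46, 59 and 64 and did not share its rise. Their ratio of reactivated over dormant was 1.03 (0.698 to 1.55), beside 1.81 (1.61 to 2.02) for exon reads. The junction ratio was 1.88 (1.58 to 2.24) for Eef1e1 and 1.61 (1.07 to 2.46) for Aimp2.

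Among 13 tested genes for other eIF2 kinases, the subunits of eIF2 and of its exchange factor eIF2B, and partners of GCN2 and the phosphatase, 1 was lower (7.69%) and none was higher at 12 h against dormant, where 7.66% of all genes were lower and 5.27% higher, so the count is at the background. The 1 gene was Impact, an inhibitor of GCN2 activation, at 30.02, 38.4 and 14.2 RPKM in the dormant, reactivating and reactivated libraries, which fell by 1.03 against dormant and by 1.38 against reactivating. Eif2s1, the eIF2 subunit that the kinases phosphorylate, was at 14.3, 12.0 and 26.6 RPKM and rose by 1.09 in reactivated against reactivating blastocysts. By their highest value in a library, the 3 most abundant without a call were Eif2b5 at 42.4, 54.6 and 52.0 RPKM, Ppp1r15b at 42.4, 48.5 and 45.0, and Eif2b1 at 20.3, 20.3 and 33.6, the last with a ratio of 1.65 (1.47 to 1.86) for reactivated over dormant. Of 30 other known ATF4 targets 24 were tested at 12 h against dormant and none passed, where 12.9% of all genes did. In so short a list a count of 0 says little. The median log2 difference of the 24 was -0.11, against -0.07 for all genes. Nearest to the rule, and named after their values were seen, were the glutamine transporter Slc1a5 at 23.5, 21.9 and 11.4 RPKM, with a log2 difference of -0.99, and Cth, an enzyme of cysteine synthesis, at 20.2, 17.2 and 10.1 RPKM, with -0.94. Without the pseudocount their ratios of reactivated over dormant were 0.484 (0.436 to 0.537) and 0.499 (0.434 to 0.572). At lower levels, Ddit4 was at 5.72, 6.17 and 2.81 RPKM, a ratio of 0.492 (0.373 to 0.647). Pycr1 went the other way, at 1.18, 1.42 and 2.40 RPKM, a ratio of 2.03 (1.32 to 3.20). By their highest value in a library, the 3 most abundant were the amino acid transporter subunit Slc3a2 at 107, 107 and 132 RPKM, the autophagy receptor Sqstm1 at 30.1, 27.8 and 22.9, and the cationic amino acid transporter Slc7a3 at 16.0, 19.9 and 26.5.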

How the data were processed

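Total RNA of pooled mouse blastocysts, depleted of ribosomal RNA, was sequenced on the SOLiD platform with 50 bp reads, per the labels' protocols, as 1 library per state. The deposited tables hold read counts of 31510 genes in exons, in introns, across junctions and on the opposite strand, per the file headers. They also hold RPKM values, which the authors derived from exon reads per the file headers. Dividing reads by length and RPKM gave totals of 14118723, 15687239 and 18982195 reads for the dormant, reactivating and reactivated libraries. Junction reads are part of the exon and intron reads, as the columns add up for every gene. The submitters' processing notes name the build GRCm38. The aligner, the counter and the annotation version were not given in the sources used here.

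From there the log2 difference of RPKM + 1 was computed in Python 3.11.15 with numpy 2.4.6, pandas 2.3.3 and scipy 1.17.1, with figures in matplotlib 3.10.9. A gene was called at a log2 difference of at least 1 if its higher value was at least 1 RPKM. The pseudocount understates changes of low genes. Counts have exact Poisson intervals and ratios exact binomial intervals (95%), for counting error only. With 1 library per state no replicate test was possible, and no p-value is given. The calculation was first tested on simulated data. Gene coordinates come from GENCODE M21 and promoter sequences from RefSeq (GRCm38.p6).

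All 35 genes are named, and of related lists those called plus up to 3 without a call whose highest RPKM in a library was largest. Slc1a5, Cth, Ddit4 and Pycr1 were named in addition, after their values were seen. The genes and lists were chosen with earlier results of these data known. Alternatives were 3 other scalings, a pseudocount of 0.1, a minimum of 5 RPKM or none, CPM with at least 20 reads, intervals that must not overlap, a minimum of 50 intron reads, and promoters without the bases after the start.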

Additional observations from a re-analysis of the deposited data

How the results depend on the processing

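The 8 alternatives for expression were upper-quartile scaling, median-ratio scaling, a total without mitochondrial and short genes, a pseudocount of 0.1, a minimum of 5 RPKM, no minimum, CPM, and intervals that must not overlap. Under them and the alternatives for intron reads and promoters, 137 summary values kept their size and 8 moved, and no called value changed sign. With CPM the number of synthetases higher in reactivated than in dormant blastocysts was 0 in place of 1, since Hars was at 0.98. In reactivated against reactivating blastocysts the number of synthetases higher was 1 in place of 0 under upper-quartile scaling, median-ratio scaling and the reduced total, which was Farsb. The median of the 20 was then 0.33, 0.32 and 0.28 in place of 0.17, while these scalings moved the median of all genes by 0.15, 0.14 and 0.10. With at least 50 intron reads, 1 gene in place of 2 had higher intron reads in that comparison. Cebpb passed the rule at -1.14 in reactivated against dormant blastocysts with a pseudocount of 0.1, which raised the calls over all genes there to 959 higher and 1630 lower, against 634 and 922. CPM gave 639 higher and 1388 lower there. No paired analysis was possible because each state had 1 library, and for the same reason no replicate could be left out. Depth limits the low genes: Cebpb rested on 37, 28 and 21 exon reads in the 3 states in order of time, Trib3 on 69, 41 and 45, and Chac1 on 46, 49 and 91.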
